A study of Brassica rapa subsp. pekinensis with 6 samples.

Results

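Among the mature small RNAs of germinated Chinese cabbage (Brassica rapa) seeds, 37 of 889 distinct sequences carried a miRNA number of the Brassica lineage, that is miR1140, miR5711 to miR5726 or miR6028 to miR6036. They were chosen by number alone, whatever the species prefix or arm, and they lay on 40 of the 1159 rows of the table. The 37 sequences belonged to 20 numbers. A total of 28 had names from B. rapa (bra) and 9 had names from B. napus (bna), the oilseed species that carries the A genome of B. rapa. Small RNA was sequenced in 6 libraries. The 3 non-vernalized libraries (Nor) came from seeds kept in the dark at room temperature for about 48 h, and the 3 vernalized libraries (Ver) came from seeds kept in the dark at 4 °C for 25 days. According to the methods of the study, all seeds were of 1 double haploid line, FT, seeds of a culture dish were pooled as 1 biological repetition, and both groups were collected at the same length. Cold and time since sowing differed together between the groups and cannot be told apart. In bulk seedlings, fewer cells of a type and less RNA per cell cannot be told apart either.

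A plant miRNA is cut by a Dicer-like enzyme from a hairpin in a longer transcript. The cut releases a duplex of a strand from the 5′ arm (5p) and a strand from the 3′ arm (3p), of which usually 1 is kept by an Argonaute protein and guides it to matching transcripts. Families such as miR156 are shared by nearly all land plants, whereas miRNAs held by a single lineage are regarded as young, and many are described as weakly expressed, cut less precisely and without known targets. Vernalization is the long exposure to cold after which many Brassica plants can flower, and in this genus it lowers the floral repressor FLC.

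The sequences on which the results turn are given 5′ to 3′ as the table lists them, with the seed (bases 2 to 8) in capitals. A name in which MIR is followed by p5 or p3 marks an arm without an entry in miRBase, the miRNA database, and ss marks substitutions. The first set holds some of the numbers whose sequences differed in direction or call. The sequences of miR5713 and miR6031, not printed here, differed in call as well.
bna-miR6029_1ss4GT: tGGTGTTGtgatttcaggctt
bna-MIR6029-p5_1ss3GA: aAAAGATAcacaagccaagcc
bna-miR6030: tCCACCCAtaccatacagaccc
bna-MIR6030-p5: gTCTGTATgtgtgggctgagt
bra-MIR5720-p3_1ss2TA: aATTTTAActgtacgatgatt
bra-MIR5720-p5_1ss18TA: tCATCGTAcagttaaaaattc
The second set holds the most abundant pair and numbers that were lower in Ver.
bra-MIR5719-p5_2ss2AT19AC: tTGTGTTGtgatgataatcc
bra-MIR5719-p3_1ss21AT: tCGGATTAtcatcacaacact
bra-miR5718: tCAGAACCaaacacagaacaag
bra-miR5716: tTGGATAAttgaagatataaa
bra-MIR5716-p5: tATATCTTcacatatctaaag
bra-MIR5726-p5_1ss1AC: cAAGACCTtattcaagcaacc
bra-MIR5726-p3_1ss20GA: aACGTGTCgtcttctagtgatgcc

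The 37 sequences had 37 different seeds, so no 2 of them shared one, and 4 shared a seed with a sequence outside the group. One of these was bra-miR5711, whose seed was also that of bra-miR403-5p. Of the 36 sequences with a genome hairpin in the table, 20 were found letter for letter in the listed strand only. Another 6 were found in both strands (16.7%, against 6.58% of all sequences with a hairpin). Among them, bna-MIR6029-p5_1ss3GA and bna-MIR6035-p5_2ss14GA24TA each had overlapping hairpins listed on the plus and the minus strand. A further 3 matched only the opposite strand (8.33%, against 1.27% of the 866 sequences with a hairpin in the whole table), and 7 matched neither strand exactly (19.4% against 26.3%). The 3 on the opposite strand were bra-MIR5719-p5 and both sequences of miR5720. This is a description of letters in the table, and whether the reads arose from that strand was not tested.

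The table held 589061 to 968483 miRNA reads per library, with fewer in each Ver library than in Nor 1 and more in Ver 1 than in Nor 2 and Nor 3. RPM below means the reads of a sequence for each 1e6 reads in the TMM-scaled library total. No replicates agreed within counting error. All nonzero reads of the 37 sequences were whole numbers of 5 or more, so a 0 in the table was read as no more than 5 reads, which equal 4.91 to 8.79 RPM. Of the 37 sequences, 26 passed the edgeR filter on low counts and were tested, 10 had no more than 19 reads in any library, and bra-MIR5712-p5 had none. Sequences of 18 nt ending in CCA moved with the group, from 5.98% ± 1.03 of all reads in the Nor libraries to 1.26% ± 0.166 in the Ver libraries (SD, n = 3 each). None of the 37 ended in CCA, and without those 9 sequences the counts of higher and lower members were unchanged.

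Most of the tested Brassica-lineage sequences were lower in Ver. At an edgeR adjusted p under 0.05, 16 of 26 were lower, 5 were higher and 5 were not called, where 32.8% of all 405 tested sequences were lower, 28.1% were higher and 61.0% were called in either direction. Thus 61.5% of the tested members were lower and 19.2% higher. Non-overlapping groups were found for 16 members below and 8 above, against 40.0% below and 31.4% above over all sequences. Of the 26, 3 had no reads in any Ver library and passed the filter through the Nor group alone. The median log2 fold change was -0.65 for members and -0.19 for all tested sequences. Under the factors of the authors the median over all sequences was -0.06, and that of the members was -0.52. Beside them, the B. rapa miRNAs miR9408 to miR9410 and miR9552 to miR9569 had 4 lower and 5 higher of 15 (median -0.32), and the conserved families from miR156 to miR408 had 54 lower and 62 higher of 166 (median -0.02). These counts are descriptions, and no difference between the sets was tested.

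**Figure D1:**
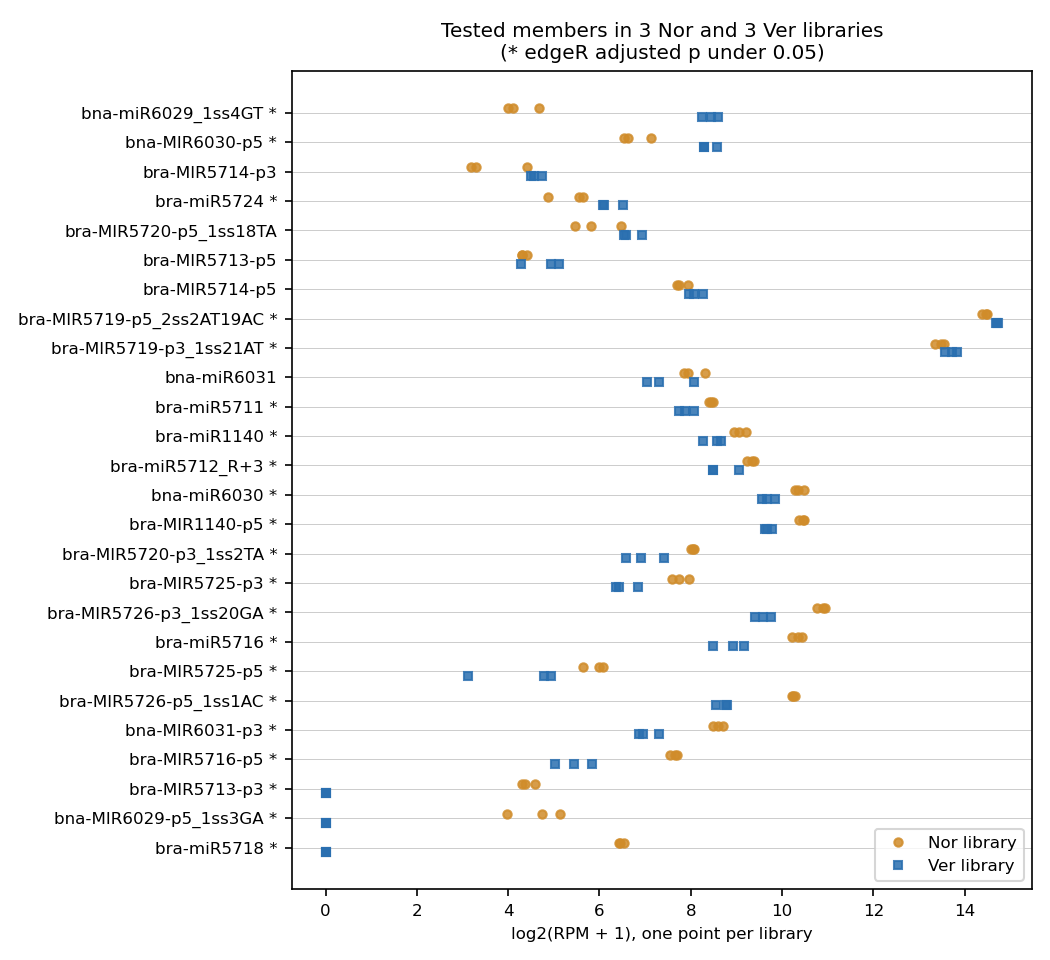
The level of each of the 26 tested sequences is plotted as log2(RPM + 1), with 1 point for each of the 3 Nor and 3 Ver libraries. Sequences are ordered by fold change, and the 3 at the bottom lie at 0 in all Ver libraries.

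**Figure D2:**
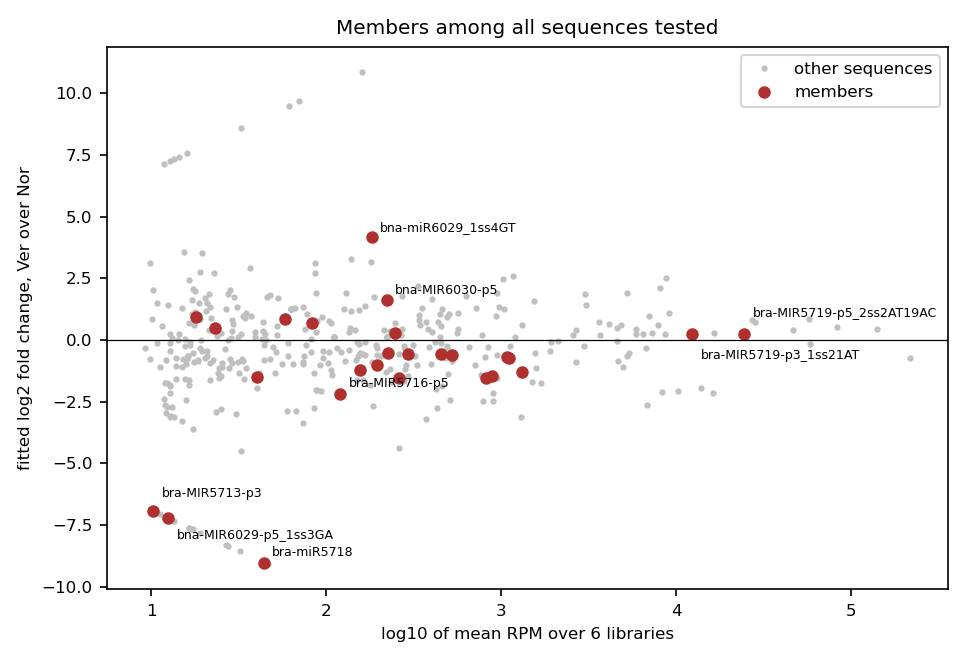
The fitted log2 fold change (Ver over Nor) of all 405 tested sequences is plotted against the log10 of their mean RPM, with the 26 members as large points. The 3 lowest members had no reads in Ver, so their fitted positions depend on the small count that edgeR adds.

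miR5719 held most of the reads. Its sequences made up 80.7% of all reads of the group, and both arms rose slightly. bra-MIR5719-p5 was at 21410, 22820 and 22600 RPM in Nor 1 to 3 and at 27310, 26670 and 26270 RPM in Ver 1 to 3. The groups did not overlap, and the level was 1.20-fold higher in Ver (log2 fold change 0.26, SE 0.053, edgeR adjusted p = 0.00194). bra-MIR5719-p3 was at 10500, 11880 and 11380 RPM in Nor and at 13520, 12220 and 14610 RPM in Ver. It was also 1.20-fold higher (edgeR adjusted p = 0.0200), although without Ver 1 the adjusted p was 0.0519. With the replicate number added to the edgeR fit the adjusted p was 0.0537. The 5p share of the number went from 66.5% ± 0.672 to 66.6% ± 2.18 (SD, n = 3 each), with overlap between the groups.

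The group as a whole held a similar part of the library in Nor and Ver, while miR5719 and the other members moved in opposite directions. The 37 sequences held 4.45% ± 0.0261 of all Nor reads against 4.60% ± 0.149 of all Ver reads (SD, n = 3 each), with overlap between the groups. miR5719 went from 3.37% ± 0.0263 to 3.99% ± 0.126, while the other 35 sequences went from 1.07% ± 0.0488 to 0.610% ± 0.0573. For both of these the libraries of Nor and Ver lay apart.

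The hairpin listed for miR5719 lies on chromosome A03 from 32238076 to 32238279, minus strand (B. rapa v3.0, as the table gives it). In the listed strand, the capitals mark the stretch whose reverse complement is bra-MIR5719-p5.
MIR5719 hairpin: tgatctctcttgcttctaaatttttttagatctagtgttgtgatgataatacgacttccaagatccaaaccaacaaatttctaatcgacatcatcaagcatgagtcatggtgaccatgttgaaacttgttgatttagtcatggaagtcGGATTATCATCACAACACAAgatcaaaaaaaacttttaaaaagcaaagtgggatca
The 5p and 3p sequences were complementary to each other over 18 nt. The table gives the 5p sequence the substitutions A2T and A19C and the 3p sequence A21T, counted from the 5′ end of the detected sequence with the known base first. Whether other genome loci hold these sequences was not tested.

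miR6029 showed the strongest rise among the members, and only 1 of its sequences was called higher. The sequence in the seeds was not the B. napus entry of miRBase, which was on 0 rows, but a form with the change G4T inside the seed. The capital marks that base.
bna-miR6029 in miRBase: tggGgttgtgatttcaggctt
bna-miR6029_1ss4GT detected: tggTgttgtgatttcaggctt
The detected form had 25, 11 and 12 reads in Nor 1 to 3 (24.5, 14.9 and 16.2 RPM) and 272, 232 and 173 reads in Ver 1 to 3 (348.7, 385.9 and 304.1 RPM). Each Ver library was far above each Nor library, and the level was 18.1-fold higher in Ver (log2 fold change 4.17, SE 0.206, edgeR adjusted p = 2.290e-07). The sequence shared a run of 10 nt, GTGTTGTGAT, with bra-MIR5719-p5.

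The sequence labelled 5p, bna-MIR6029-p5_1ss3GA, went the other way. Its longest complementary run with the rising sequence was 5 nt, so the 2 were not shown to be strands of 1 duplex. bna-MIR6029-p5_1ss3GA had 35, 19 and 11 reads in Nor and none in any Ver library, which is at least 3.19-fold lower with 5 reads per library as the floor (edgeR adjusted p = 0.00131). The other 5p form, bna-MIR6029-p5, had 6 reads in Nor 2, 5 in Ver 2 and 8 in Ver 3 and was not tested. Summed over its 3 sequences, miR6029 rose (log2 fold change 2.96). Without the rising sequence the sum was lower (log2 fold change -1.997, edgeR adjusted p = 0.0464). That sum holds mostly the reads of bna-MIR6029-p5_1ss3GA, which passed the filter through Nor alone, so it is not a second result.

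The hairpin that the table gives for bna-miR6029 lies on chromosome A05 from 24975588 to 24975700, plus strand. It holds the miRBase sequence, in capitals, and not the detected form.
MIR6029 hairpin: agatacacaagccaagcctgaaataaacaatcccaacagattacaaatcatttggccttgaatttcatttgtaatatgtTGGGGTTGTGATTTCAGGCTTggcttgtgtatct
For bna-MIR6029-p5_1ss3GA the table gave a pair of longer hairpins that overlap it, from 24975559 to 24975725 on the plus strand and from 24975679 to 24975805 on the minus strand. Its reads can therefore not be placed on 1 strand.

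miR6030 had arms that moved in opposite directions. bna-miR6030, the 3p strand listed in miRBase, was at 1246, 1304 and 1418 RPM in Nor 1 to 3 and at 749.9, 914.9 and 812.2 RPM in Ver 1 to 3. It fell 1.60-fold (log2 fold change -0.68, SE 0.10, edgeR adjusted p = 2.686e-04). The 5p strand bna-MIR6030-p5 was at 91.3, 139.7 and 98.4 RPM in Nor and at 314.0, 377.6 and 312.9 RPM in Ver. It rose 3.06-fold (log2 fold change 1.62, SE 0.176, edgeR adjusted p = 3.724e-05), and the groups lay apart for both arms. The sum of the arms was not called (log2 fold change -0.25, edgeR adjusted p = 0.0730). The 3p arm held 93.2%, 90.3% and 93.5% of the number in Nor 1 to 3 and 70.5%, 70.8% and 72.2% in Ver 1 to 3. These shares did not overlap, and the two-sided exact permutation p was 0.1, the smallest that 3 against 3 libraries allow. Both arms are exact in the hairpin on chromosome A06 from 10019524 to 10019636, plus strand, where the capitals mark first the 5p and then the 3p sequence.
MIR6030 hairpin: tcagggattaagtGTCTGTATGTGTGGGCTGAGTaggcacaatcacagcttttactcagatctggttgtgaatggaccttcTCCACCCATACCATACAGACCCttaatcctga

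miR5720 had a 3p sequence that fell and a 5p sequence that was not called. bra-MIR5720-p3 was at 262.1, 255.0 and 266.9 RPM in Nor 1 to 3 and at 170.5, 119.8 and 94.9 RPM in Ver 1 to 3. It fell 2.01-fold (log2 fold change -1.01, SE 0.192, edgeR adjusted p = 0.00143). bra-MIR5720-p5 was at 87.4, 43.4 and 55.3 RPM in Nor and at 92.3, 94.8 and 121.3 RPM in Ver, and its log2 fold change of 0.71 (SE 0.277) just missed the threshold (edgeR adjusted p = 0.0502). Over its alternatives the adjusted p ranged from 0.00817 (without Nor 1) to 0.153 (without Nor 3), on both sides of the threshold, and the log2 fold change from 0.55 to 1.14. The share of the 3p sequence went from 81.1% ± 5.44 to 54.9% ± 10.5 (SD, n = 3 each) without overlap. The sequences were complementary over 17 nt, and the reverse complement of each stood exactly in the listed hairpin on chromosome A09 from 622643 to 622932, minus strand. The first stretch of capitals is the reverse complement of p3 and the second that of p5, so the sequence named p3 lies opposite the 5′ arm as listed.
MIR5720 hairpin: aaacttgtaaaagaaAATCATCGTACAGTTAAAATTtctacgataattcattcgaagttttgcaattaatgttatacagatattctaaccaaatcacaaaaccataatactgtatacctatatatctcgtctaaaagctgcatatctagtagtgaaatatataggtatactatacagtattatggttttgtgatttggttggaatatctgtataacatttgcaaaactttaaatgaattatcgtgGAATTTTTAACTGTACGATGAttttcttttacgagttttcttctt

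In other numbers both arms, as the table labels them, were lower in Ver. The longest complementary run between the arms was 10 nt for miR5716 and miR1140, 5 nt for miR5726 and 3 nt for miR5725. For numbers described further below it was 5 nt for miR5718, 4 nt for miR6031 and 2 nt for miR5713. Whether such sequences form a duplex was not tested. Both arms of miR5726, on chromosome A10 from 8462085 to 8462426, were abundant in Nor. bra-MIR5726-p3 was at 1906, 1751 and 1950 RPM in Nor 1 to 3 and at 673.0, 761.9 and 870.2 RPM in Ver 1 to 3 (2.44-fold lower, SE 0.106 on the log2 scale, edgeR adjusted p = 5.873e-06). bra-MIR5726-p5 was at 1193, 1251 and 1210 RPM in Nor and at 374.3, 445.8 and 437.8 RPM in Ver (2.91-fold lower, SE 0.097, edgeR adjusted p = 9.629e-07). No Ver library reached the lowest Nor library for either arm. Neither sequence is exact in the listed hairpin, and the table records A1C for p5 and G20A for p3.

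miR5716, on chromosome A09 from 1813788 to 1813993, fell further on the minor arm. bra-miR5716, the 3p strand, was at 1378, 1190 and 1301 RPM in Nor 1 to 3 and at 484.5, 572.3 and 360.4 RPM in Ver 1 to 3. bra-MIR5716-p5 was at 200.2, 206.2 and 186.0 RPM in Nor and at 42.3, 56.6 and 31.6 RPM in Ver. The falls were 2.73-fold (edgeR adjusted p = 2.892e-05) and 4.52-fold (edgeR adjusted p = 1.552e-05). The 3p share went from 86.7% ± 1.26 to 91.6% ± 0.546 (SD, n = 3 each), and the groups lay apart (exact permutation p = 0.1, two-sided, the smallest possible).

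miR1140, on chromosome A03 from 694565 to 694739, fell by less. Its 5p sequence bra-MIR1140-p5 was at 1425, 1324 and 1405 RPM in Nor 1 to 3 and at 878.0, 790.2 and 808.7 RPM in Ver 1 to 3. It was 1.68-fold lower (edgeR adjusted p = 4.269e-05). The 3p strand bra-miR1140, which is the one listed in miRBase, was less abundant, at 531.0, 590.1 and 494.7 RPM in Nor and at 401.2, 307.8 and 379.7 RPM in Ver (1.48-fold lower, edgeR adjusted p = 0.00339). Its adjusted p under limma was 0.0567. For miR5725, bra-MIR5725-p3 went from 218.8 RPM ± 28.9 to 93.3 ± 18.1 and bra-MIR5725-p5 from 59.2 RPM ± 8.93 to 21.4 ± 12.0 (SD, n = 3 each), with edgeR adjusted p values of 2.850e-04 and 0.0147. The p5 call did not hold without Nor 2 (adjusted p = 0.0658), without Nor 3 (adjusted p = 0.0691) or under limma (adjusted p = 0.0552).

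**Figure D3:**
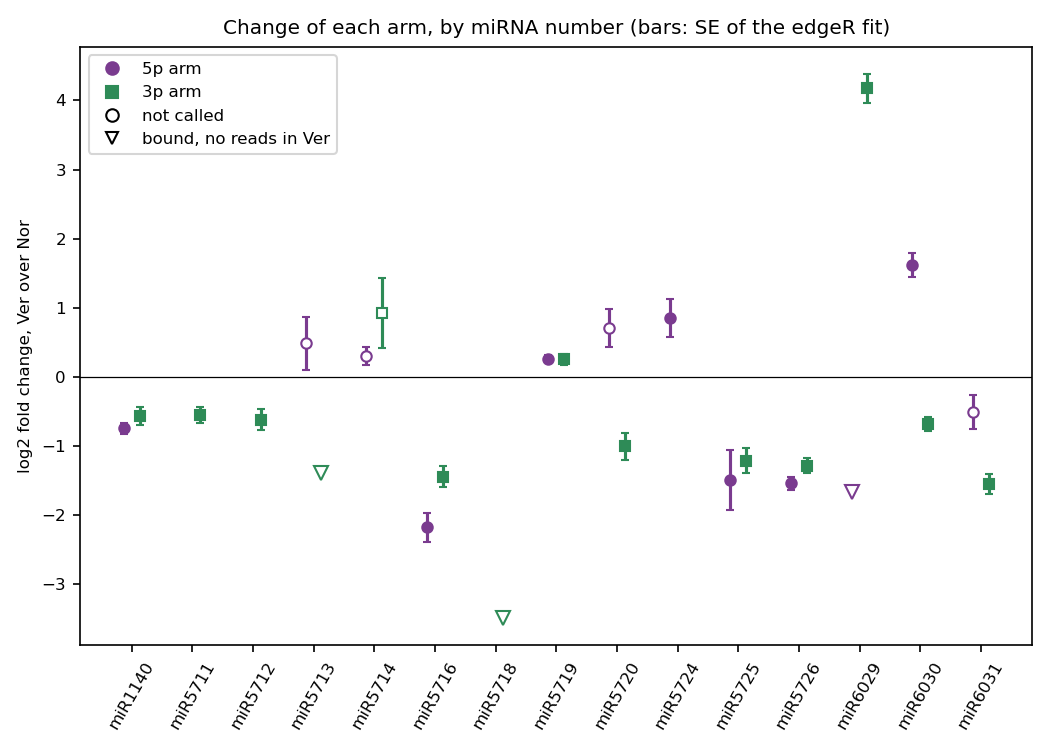
The log2 fold change (Ver over Nor) of each tested sequence is plotted by miRNA number, circles for the 5p and squares for the 3p arm, with the SE of the edgeR fit as bars and open symbols for those not called. Triangles are bounds for sequences without reads in Ver, and miR6029 and miR6030 have called sequences on each side of 0.

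A few sequences had reads in the Nor group alone. bra-miR5718, on chromosome A09 from 6043510 to 6043743, had 88, 68 and 63 reads in Nor 1 to 3 (86.4, 92.2 and 84.9 RPM) and none in the 3 Ver libraries. It was at least 11.2-fold lower in Ver with 5 reads per library as the floor (edgeR adjusted p = 8.723e-06). Its 5p partner had 16 reads in Nor 1 and none elsewhere. bra-MIR5713-p3 had 20, 17 and 14 reads in Nor and none in Ver, which is at least 2.62-fold lower (edgeR adjusted p = 0.00155). The other arm, bra-MIR5713-p5, had 19, 15 and 14 reads in Nor and 23, 11 and 19 in Ver and was not called (edgeR adjusted p = 0.284). Below the filter, bra-MIR5721-p3 had 11, 6 and 12 reads and bra-MIR5723-p5 had 19, 6 and 9 reads in Nor, and neither had any in Ver. They were named because they had reads in every Nor and no Ver library, so a test of that difference adds no support. In the fit without the filter their edgeR adjusted p values were 0.0259 and 0.0198. Those of the other untested sequences with reads were 0.22 to 0.942. In that fit 18 of 36 members were lower and 5 higher, against 14.9% and 13.1% of its 872 sequences. A larger part of the members than of the 872 had passed the filter, so these shares do not compare sets of like depth. Over all 37 sequences, 7 had reads in Nor only and 1, bra-MIR5722-p5 with 6 reads in Ver 1, had reads in Ver only. An imbalance in the same direction was reported by the study, with more miRNAs specific to Nor than to Ver over all it identified. Its size was not compared with that of the members. Among tested sequences, 3 of 26 members and 34 of all 405 had no more than the floor of 5 reads throughout 1 group. For the 3 members that group was Ver, whereas the 34 count either group.

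The remaining called sequences moved by less than 3-fold. bna-MIR6031-p3 fell from 387.9 RPM ± 29.3 to 132.2 ± 22.7 (SD, n = 3 each, edgeR adjusted p = 1.207e-05). Its 5p partner bna-miR6031, which is the strand miRBase lists, was at 229.7, 244.2 and 318.1 RPM in Nor and at 156.4, 269.5 and 130.1 RPM in Ver, where Ver 2 lay among the Nor libraries. It was not called (edgeR adjusted p = 0.103), and without Ver 2 it was (adjusted p = 0.00832). bra-miR5711 fell from 349.0 RPM ± 11.2 to 237.8 ± 26.9 (SD, n = 3 each, edgeR adjusted p = 0.00227), and bra-miR5712_R+3, with 3 added bases at its 3′ end, from 634.4 RPM ± 35.2 to 413.7 ± 99.9 (SD, n = 3 each, edgeR adjusted p = 0.00711). The latter missed the threshold without Nor 3 (adjusted p = 0.0532) and under limma (adjusted p = 0.0544). The table also lists bra-miR5712_R+3 in the hairpin of MIR9561. bra-miR5724 was at 46.1, 28.5 and 48.5 RPM in Nor and at 67.9, 89.8 and 66.8 RPM in Ver, without overlap. It rose 1.81-fold (log2 fold change 0.86, edgeR adjusted p = 0.0220). Without Nor 2 (log2 fold change 0.71, adjusted p = 0.0526) or Ver 2 (0.78, adjusted p = 0.0658) the call was lost at a similar size. The same held with the replicate number added to the edgeR fit (0.87, adjusted p = 0.0785). For miR5714, bra-MIR5714-p5 had log2 fold change 0.30 (edgeR adjusted p = 0.0610) and bra-MIR5714-p3 0.93 (edgeR adjusted p = 0.132), and neither was called. The groups did not overlap for either, and the calls depended on the processing. For p5 the edgeR adjusted p was 0.0157 with the factors of the authors and 0.116 with library totals only. For p3 the adjusted p was 0.0436 under limma and 0.201 under DESeq2.

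When reads were summed per number, 15 of the 20 numbers were tested, of which 9 were lower, 4 were higher and 2 were not called. Over all 187 number sums and single predicted sequences, 34.2% were lower, 26.7% were higher and 61.0% were called in either direction. The numbers that rose were miR6029, miR5724 (log2 fold change 0.92), miR5714 (0.40) and miR5719 (0.32). Those that fell were miR5718, miR5716 (-1.47), miR5726 (-1.32), miR5725 (-1.22), miR6031 (-0.98), miR1140 (-0.64), miR5712 (-0.56), miR5711 (-0.51) and miR5720 (-0.42). The sum of miR5714 (edgeR adjusted p = 0.0272) lost its call without any 1 of the Nor libraries, Ver 1 or Ver 3, and those of miR5711 and miR5712 did so without Nor 2. The sum of miR5720 did so without Nor 2 or Ver 3. With DESeq2 size factors in the edgeR fit, 6 numbers were lower, and the sums of miR5711, miR5712 and miR5720 had adjusted p values of 0.0637, 0.05 and 0.307. The sum of miR6030 was called lower without Nor 1, Ver 2 or Ver 3, with adjusted p values of 0.0171, 0.0111 and 0.0363.

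For 11 numbers with at least 2 tested sequences, the share of the most abundant sequence was compared between the groups. In 7 of them (63.6%) the libraries did not overlap, against 65.0% of all 60 numbers of the table with as many tested sequences. The share was lower in Ver for miR6030, miR5720 and miR6031 (59.7% ± 2.53 to 42.7% ± 5.83) and higher for miR5713, miR6029, miR5716 and miR5726 (60.5% ± 1.89 to 64.6% ± 1.75, SD, n = 3 each). For miR5713 and miR6029 the share of 100% in Ver and the lack of overlap follow from a partner that passed the filter through Nor alone. Without such numbers 5 of 9 did not overlap, against 66.7% of 45. All 7 had the smallest exact permutation p of 0.1 (adjusted 0.157 over the 11 numbers), so the design could not reach 0.05. The shares overlapped for miR1140, miR5714, miR5719 and miR5725.

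**Figure D4:**
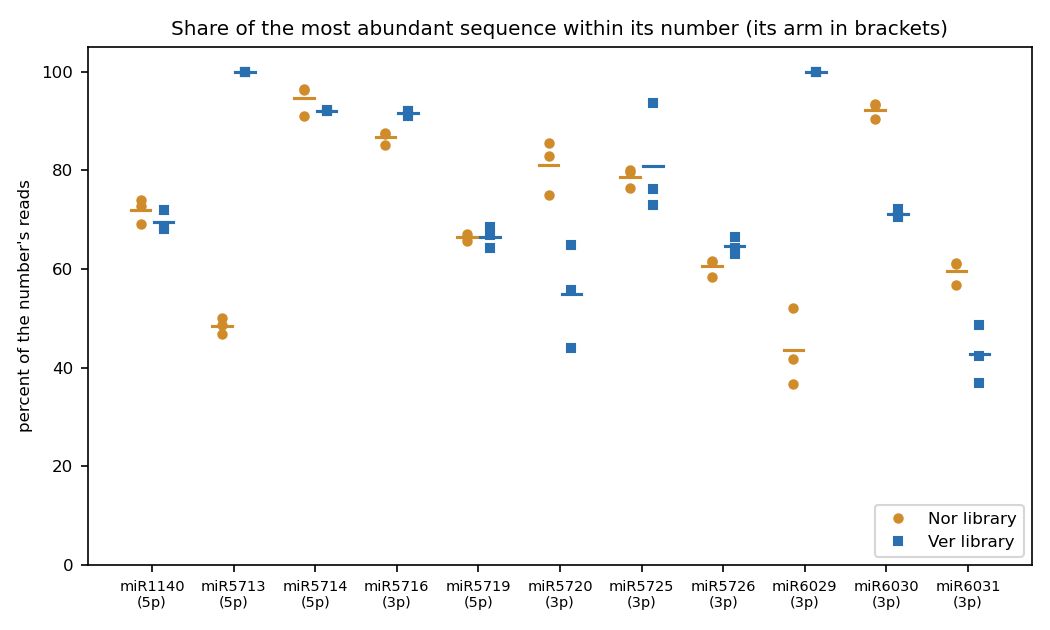
The percent of a number's tested reads held by its most abundant sequence is plotted for 11 numbers, with 1 point per library and a line at each group mean. miR6030 has 3 Nor libraries above 90% and 3 Ver libraries near 71%, whereas miR5719 stays near 66% in both groups.

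In length and first base, miR5719 outweighed all other members. The 20-nt bra-MIR5719-p5 alone held 53.7% of the reads of the group. Sequences of 21 nt held 35.7%, those of 22 nt 5.14% and those of 24 nt 5.38%. Without miR5719 the parts were 45.2% for 21 nt, 26.7% for 22 nt and 27.9% for 24 nt. Sequences that start with T (U in the RNA), the base found most often on plant miRNAs bound by AGO1, held 87.3% of the reads, and 34.2% without miR5719. By arm, 11 of 14 tested 3p sequences were lower and 2 higher (78.6% and 14.3%, against 35.5% and 28.0% of all tested 3p sequences). Of 12 tested 5p sequences, 5 were lower and 3 higher (41.7% and 25.0%, against 29.9% and 28.4%). In the 21-nt class 10 of 17 members were lower (58.8%, against 30.3% of all tested 21-nt sequences), and in the 24-nt class 3 of 4 (75%, against 36.1%). Sequences without reads in any Ver library, which passed the filter through Nor alone, were 2 of the 14 on 3p. They were 1 of the 12 on 5p and 2 of the 17 of 21 nt. Once tested, such sequences could only be lower. These classes overlap with the numbers, and their differences were not tested.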

How the data were processed

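Per the labels and methods, the authors removed adapter, low-complexity, structural RNA and repeat reads, and placed unique sequences on the B. rapa v3.0 genome and miRBase 21.0 precursors with BLAST. The deposited raw values are estimated counts, and the deposited normalized values are a signal, the raw value times 1 factor per library (0.606 to 1.22). Hairpin coordinates, lengths of 18 to 25 nt and sequences are as deposited. The hairpins were not annotated against genes here.

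Rows of the same sequence were added, rounded and tested in edgeR 4.0.16 with its quasi-likelihood F test (R 4.3.3), with TMM factors (0.949 to 1.05), its low-count filter and group as the only term. Benjamini-Hochberg adjustment was over all 405 sequences (or 187 number sums) tested. The biological coefficient of variation was 0.146. Per the methods, a dish of seeds was a replicate, and seeds were split into groups after germination. Shares were compared by two-sided exact permutation tests. Named are all called members, the 5 most abundant, the leading sequence of each number, and untested ones with reads in all libraries of 1 group and none of the other. The members and lists were chosen with earlier results of these data known. Alternatives were other scalings, DESeq2 1.42.0, limma 3.58.1 (log2 of the deposited signal plus 1), other filters and thresholds, a replicate block and leaving out each library. The script was tested on simulated data whose variation between replicates was set below the biological coefficient of variation given here. That test was therefore easier than these data.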

Additional observations from a re-analysis of the deposited data

How the results depend on the processing

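No tested member changed direction under any alternative, and 17 of 26 members kept their call in every alternative that tested them. The number of members called higher (5) was 8 under limma, 3 with the replicate block, and 2 either at an adjusted p under 0.05 with an absolute log2 fold change over 1 or under the thresholds of the study, which pair the same fold limit with an unadjusted p of 0.05 or less. The lower count was 11 of 26 under the thresholds of the study, where 24.0% of all sequences were lower and 19.3% higher. The count over all sequences (247) was 164 with the fold threshold added. Under limma, 122 of all 405 sequences were higher and 119 lower. Under DESeq2, 6 number sums were lower instead of 9, and those of miR5711 (adjusted p = 0.183), miR5712 (0.0789) and miR5720 (0.479) lost their calls. Leaving out 1 library gave 4 to 7 members higher and 14 to 17 lower, with 216 to 249 sequences called in either direction over the whole table. The share of the leading sequence of miR5719 differed by 0.123 percentage points, and by -0.882 to 1.28 when 1 library was left out. For miR5725 the difference of 2.23 became -4.14 without Ver 1, and the other libraries gave up to 6.20. Counted once instead of by reads, 61.1% of sequences had 20 or 21 nt and 41.7% began with T, where the mean share of member reads over the 6 libraries was 89.8% and 87.7%. Without its most abundant sequence the sum of miR6030 was 1.58 (edgeR adjusted p = 2.851e-05), that of miR6029 -1.997 (0.0464) and that of miR5720 0.67 (0.0385). By construction these sums hold the other arm only. Other causes were not tested.

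Deviations of same-numbered libraries correlated by -0.139 to 0.133, and not every library correlated best with its own number. With 3 libraries per group such values cannot settle whether the replicate numbers pair the samples. With the replicate block 16 of 26 members were lower and 3 higher, against 112 lower and 92 higher of all 405 sequences. The calls of bra-miR5724 (edgeR adjusted p = 0.0785) and bra-MIR5719-p3 (0.0537) were lost. Whether same-numbered Nor and Ver libraries came from the same dish was not stated. The floor of 5 reads, 4.91 to 8.79 RPM, limits what can be said of the 11 untested sequences.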
